A study of Mus musculus with 8 samples.

Results

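The genes examined were the 10 NF-kB subunits and inhibitors Rel, Rela, Relb, Nfkb1, Nfkb2, Nfkbia, Nfkbid, Nfkbie, Nfkbiz and Tnfaip3, taken by gene symbol from the 23183 genes counted in each library. They comprise the 5 Rel-domain subunits, the cytoplasmic IkB proteins encoded by Nfkbia and Nfkbie, the nuclear IkB proteins encoded by Nfkbid and Nfkbiz, and Tnfaip3, which encodes the ubiquitin-editing enzyme A20. All 10 had enough reads to be tested, and the rule that picks them uses no measured value. The list was drawn up with other results of these libraries already known.

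The libraries were made from poly(A)-selected RNA of cultured lung ILC2s of C57BL/6 mice. ILC2s are tissue-resident innate lymphocytes that make type 2 cytokines. One group of 4 was exposed to 5 µM Yoda1, a chemical agonist of the mechanically gated cation channel Piezo1, and the other group of 4 to the vehicle DMSO at 0.1%, both for 3 h. The mice of both groups were 6 to 10 weeks old and had been given recombinant IL-33. ILC2s were enriched from their lungs and grown with IL-2, IL-7 and IL-33 at 10 ng/mL each. Both groups thus carried the same background of IL-33, a cytokine that itself signals to NF-kB through its receptor and MyD88. Separate mice or cultures for the 4 samples are not stated in the sources, so p-values measure only the spread between these samples, which may be technical.

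In resting cells NF-kB dimers are held in the cytoplasm by IkB proteins. The canonical route frees dimers of RelA, c-Rel and p50 when the IKK complex marks IkB-alpha for destruction, while the non-canonical route runs through NIK and IKK-alpha and turns the p100 product of Nfkb2 into p52, the partner of RelB. NF-kB switches on genes for several of its own subunits and inhibitors, among them Nfkbia and Tnfaip3, which close a negative feedback loop. In lymphocytes calcium entry and protein kinase C reach the same pathway through BCL10 and MALT1. Most of this control acts on protein, which mRNA counts do not measure.

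Library totals ran from 12438009 to 19534653 counts. By total alone 1 count was worth 0.0512 to 0.0804 CPM, a count scaled to the same total in every library. The CPM given below were further adjusted by the TMM scaling factors. Within each group every pair of libraries differed by more than counting noise, with a chi-square per gene of 2.04 to 6.98, and all 8 were kept. Of the 23183 genes, 12239 passed the filter on low counts, and edgeR's quasi-likelihood test called 739 of them higher and 592 lower with Yoda1 at a Benjamini-Hochberg adjusted p under 0.05. The median log2 fold change of all tested genes was -0.0053. With upper-quartile scaling in place of TMM the split of calls was 505 higher and 958 lower, and with library size only it was 553 higher and 809 lower. All 11 ILC2 markers examined were tested, and their summed level ran from 16819 to 17369 CPM with DMSO and from 18815 to 19184 CPM with Yoda1. Of these 11 genes, 4 (Il1rl1, Thy1, Il13 and Il5) rose and 1 (Icos) fell. The mean of the cytokine gene Il13 went from 5431 to 6667 CPM, a large part of the rise in the sum. Gata3 (565 CPM in both groups), Rora, Id2, Klrg1, Il7r and Il2ra were not called. Of the markers of other cells in the files, 6 of 6 for T cells, 1 of 5 for B cells, 2 of 8 for macrophages or dendritic cells and 3 of 5 for mast cells or basophils had enough counts for the edgeR test, and none of these was called. Ms4a1, Pax5, Csf1r, Lyz2, Marco and Fcer1a were at or under 3 counts in every library. Other markers of the same cells were present, with 70 to 128 counts per library for Cd79b, 81 to 152 for Itgax, 46 to 87 for Itgam, 23 to 45 for each of Cpa3 and Mcpt8, and 942 to 1547 for Kit. The summed T cell markers were at 69.8 to 77.5 CPM with DMSO and 75.2 to 84.8 CPM with Yoda1. The summed B cell markers lay at 5.32 to 7.07 and 5.54 to 7.20 CPM, those of macrophages or dendritic cells at 9.45 to 13.7 and 11.3 to 13.4 CPM, and those of mast cells or basophils at 77.6 to 89.3 and 75.9 to 86.3 CPM. Of 5 NK cell markers, Eomes and Prf1 were called higher. Ncr1, Klrb1c and Klre1 were not called, with log2 fold changes of -0.23, -0.21 and 0.10. The NK sum was 419 to 469 CPM with DMSO and 470 to 496 CPM with Yoda1. Most of it was Prf1, with means of 385 and 423 CPM. The part of these shifts in the results below was not tested, and in bulk RNA fewer cells of a type and less RNA per cell cannot be told apart.

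After 3 h of Yoda1, Rel rose 1.72-fold, Tnfaip3 1.32-fold, Nfkb1 1.16-fold, Nfkbiz 1.11-fold and Relb 1.10-fold, and these 5 were the members past the threshold of the edgeR test. No member was called lower. Over all tested genes the test called 6.04% higher and 4.84% lower, against 5 and 0 of the 10 members. The median log2 fold change of the 10 members was 0.12. All 10 fitted values lay above 0, although that of Nfkbie turned to -0.0044 with upper-quartile scaling. For 6 members every Yoda1 library lay above every DMSO library, which over all tested genes was so for 8.44%. For no member was it the other way round, but the share of all tested genes in that direction was not counted. With all 10 values above 0 in the fits of edgeR, DESeq2 and limma-voom, no member could be called lower there at any threshold. Before adjustment the edgeR p-values of Rela, Nfkbia and Nfkb2, which were not called, were 0.0151, 0.0330 and 0.0422. The share of all tested genes with unadjusted p-values this low was not counted, so no count of members is given for them.

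The promoters of these genes are shown first, because the family is known for kappa-B sites in its own regulatory DNA. RefSeq promoter windows (250 bases before to 50 bases after a start site, build GRCm38.p6) were matched for 7 of the 10 members, with 12 windows in all. Relb, Nfkb1 and Nfkbiz were not matched. A match to the kappa-B consensus on either strand was present in windows of Rel, Nfkb2, Nfkbia, Nfkbid, Nfkbie and Tnfaip3 and not in that of Rela. That is 6 of 7 genes, while 5.14% of all 27025 genes with a window held one. Some members have several windows, and counted by window it was 8 of 12 against 4.51% of all 32851. The stretches below are written 5′ to 3′ in the direction of the gene, with the consensus matches in capitals. They run up to a RefSeq start site, except that the stretch of Rela ends 59 bases and that of Nfkb2 19 bases before it. The whole window of Rela, including the part not printed, held no match to the consensus. They show the single merged site of Rel, a site of Nfkb2, the site next to the start in Nfkbia, the upstream pair of sites in Nfkbid, the pair in Tnfaip3, and the stretch of Rela without one.
Rel (chr11:23770970-23771119, minus strand): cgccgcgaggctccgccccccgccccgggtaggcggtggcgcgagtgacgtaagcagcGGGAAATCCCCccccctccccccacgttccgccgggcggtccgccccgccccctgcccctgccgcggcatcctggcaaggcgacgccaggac
Rela (chr19:5637391-5637482, plus strand): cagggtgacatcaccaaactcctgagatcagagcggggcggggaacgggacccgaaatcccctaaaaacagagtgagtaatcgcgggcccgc
Nfkb2 (chr19:46304689-46304718, plus strand): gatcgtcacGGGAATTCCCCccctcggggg
Nfkbia (chr12:55492648-55492797, minus strand): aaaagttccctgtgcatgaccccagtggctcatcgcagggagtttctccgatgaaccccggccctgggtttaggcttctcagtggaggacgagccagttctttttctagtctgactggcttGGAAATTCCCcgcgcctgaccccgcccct
Nfkbid (chr7:30422156-30422405, plus strand): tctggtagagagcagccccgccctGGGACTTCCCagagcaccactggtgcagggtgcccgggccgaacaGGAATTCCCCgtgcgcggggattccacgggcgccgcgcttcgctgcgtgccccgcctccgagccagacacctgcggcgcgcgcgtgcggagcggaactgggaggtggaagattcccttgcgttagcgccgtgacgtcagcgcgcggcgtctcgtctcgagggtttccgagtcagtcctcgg
Tnfaip3 (chr10:19015411-19015560, minus strand): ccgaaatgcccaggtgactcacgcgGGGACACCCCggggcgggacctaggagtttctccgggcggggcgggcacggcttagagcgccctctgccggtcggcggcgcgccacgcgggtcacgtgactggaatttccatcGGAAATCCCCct

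Counted from the start site, the merged match of Rel began at -92 and is made of 3 overlapping matches on both strands. In Nfkb2 matches began at -39 and -38 and another at -11 of the first start, and its other windows held 3 more, of which 2 are the same site read from overlapping windows. The match of Nfkbia began at -29, those of Nfkbid at -226 and -181 of its second start, that of Nfkbie at -106 and those of Tnfaip3 at -125 and -12. In the GENCODE M21 annotation the stretch of Nfkb2 lies in the untranslated first exon of a longer transcript, and that of Nfkbid lies in an intron of a longer transcript. The stretch of Tnfaip3 shares 13 bases with an annotated first exon and that of Rel shares 1. With the looser pattern of GGG, any 5 bases and CC, 7 of 7 member genes matched against 53.5% of all genes. With the stricter pattern of GGG, any 2 bases and TTTCC, 4 of 7 matched (Rel, Nfkb2, Nfkbia and Tnfaip3) against 1.89%. Other motifs were found in fewer of the member genes than the kappa-B consensus, though AP-1 and the NFAT core were more frequent over all genes. The CRE motif TGACGTCA was found in Nfkbid alone, at -51, and in 2.03% of all genes. The AP-1 motif TGANTCA was found in 3 members (Nfkb2, Nfkbie and Tnfaip3) and 8.97% of genes, and the NFAT core TGGAAA in 4 members (Nfkb2, Nfkbia, Nfkbid and Tnfaip3) and 23.9% of genes. Counted by window, AP-1 was in 3 of 12 against 7.81% of all, and the NFAT core in 5 of 12 against 21.4%. In Nfkbia 1 NFAT core, at -30, overlaps the kappa-B match. Members with a match included both called genes (Rel and Tnfaip3) and genes that were not called (Nfkb2, Nfkbia, Nfkbid and Nfkbie).

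**Figure D1:**
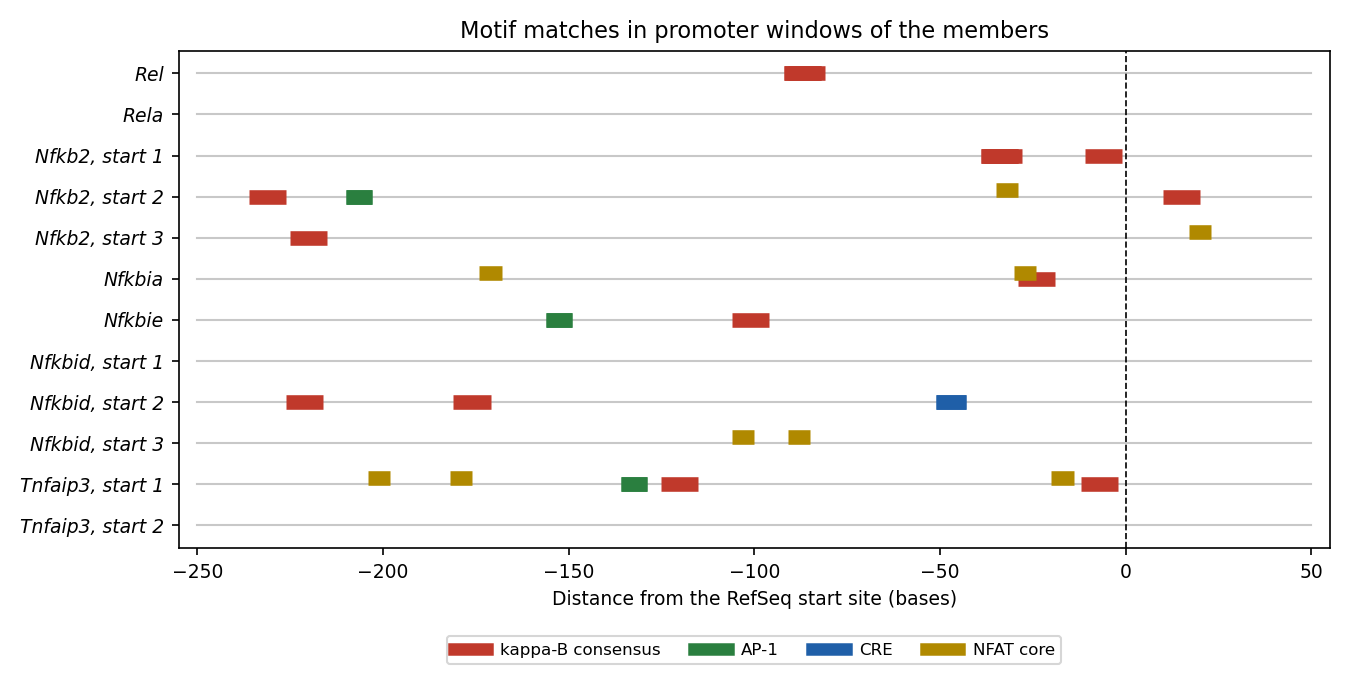
Motif matches in the 12 promoter windows of 7 members, drawn against the distance from the RefSeq start site in bases, with 1 line per window and coloured bars for the kappa-B consensus, AP-1, CRE and NFAT core matches. Of the 12 windows 8 hold a kappa-B consensus match, and the window of Rela holds none. The matches of Nfkbia, Nfkb2 start 1 and 1 of those of Tnfaip3 begin at -39 or nearer to the start. In Nfkb2 start 2 a match begins 10 bases after the start.

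Rel encodes c-Rel, a transactivating subunit that lymphocytes induce on activation. Rel lies on chromosome 11 (GRCm38, positions 23736847 to 23770970, minus strand, 10 exons). Its level was 16.5, 17.9, 18.2 and 18.9 CPM in DMSO replicates 1 to 4, and 32.7, 32.4, 27.4 and 30.2 CPM in Yoda1 replicates 1 to 4. Every Yoda1 library stood well above every DMSO library, and Yoda1 replicate 3 was the lowest of its group. The mean rose from 17.9 ± 1.03 to 30.7 ± 2.43 CPM (SD, n = 4 each). Over all 8 libraries Rel had 256 to 587 counts. On the log2 scale the difference was 0.78 ± 0.070 (standard error), with a 95% interval from 0.64 to 0.93 and an adjusted p of 2.29e-09 by edgeR. By an exact permutation test on CPM the two-sided p was 0.0286, the smallest that 4 libraries against 4 allow. The fitted difference stayed between 0.75 and 0.83 when each library was left out in turn. Outside the members, the genes whose log2 CPM followed that of Rel most closely over the 8 libraries were Ptpn22, which encodes a lymphoid tyrosine phosphatase (Pearson r = 0.994), the clock gene Per1 (0.993) and the kinase gene Jak2 (0.993). These values describe points that fall into the groups of DMSO and Yoda1 libraries, and the log2 fold changes of the 3 genes were 0.32, 0.51 and 0.22.

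Nfkb1 encodes p105, the precursor of p50, and was the most abundant member in reads. It lies on chromosome 3 (135584655 to 135691547, minus strand, 25 exons). Its level was 842, 838, 881 and 847 CPM in the DMSO libraries and 979, 1007, 1004 and 975 CPM in the Yoda1 libraries. The groups lay 94.0 CPM apart, far more than the spread within either. The mean went from 852 ± 19.3 to 991 ± 16.7 CPM (SD, n = 4 each). The log2 difference was 0.22 ± 0.034 (standard error), with an adjusted p of 3.46e-05 by edgeR and p = 0.0286 by the exact permutation test. Nfkb2 encodes p100, the precursor of p52, on chromosome 19 (46304320 to 46312385, plus strand, 22 exons). It was at 317, 337, 353 and 334 CPM with DMSO and at 354, 358, 353 and 349 CPM with Yoda1. DMSO replicate 3 lay within the Yoda1 range, so the groups overlapped. The means were 335 ± 14.7 and 354 ± 3.77 CPM (SD, n = 4 each), and the log2 difference was 0.077, with a 95% interval from 0.0029 to 0.15 and an adjusted p of 0.180 by edgeR (p = 0.0857 by exact permutation). Exons of Nfkb2 overlap AC114539.1 and Psd on the opposite strand, and the strand setting of the counting is not given in the sources used here. Exons of the other 9 members overlap no other gene.

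Rela encodes p65, the main transactivating partner of p50, on chromosome 19 (5637483 to 5648130, plus strand, 11 exons). It was at 105.8, 115, 117 and 113 CPM with DMSO and at 123, 121, 127 and 117 CPM with Yoda1. Yoda1 replicate 4 fell just under DMSO replicate 3, and the other 3 Yoda1 libraries lay above all DMSO libraries. The means were 113 ± 4.96 and 122 ± 4.23 CPM (SD, n = 4 each), with a log2 difference of 0.11, a 95% interval from 0.022 to 0.19 and an adjusted p of 0.0962 by edgeR (p = 0.0571 by exact permutation). Relb encodes the non-canonical partner of p52, on chromosome 7 (19606217 to 19629438, minus strand, 12 exons). Its level was 86.1, 86.9, 85.7 and 81.3 CPM with DMSO and 92.2, 94.5, 95.2 and 93.6 CPM with Yoda1. The groups did not overlap, and the lowest value was DMSO replicate 4. The mean rose from 85.0 ± 2.52 to 93.9 ± 1.30 CPM (SD, n = 4 each), which is 0.14 ± 0.040 (standard error) in log2, with an adjusted p of 0.0204 by edgeR and p = 0.0286 by exact permutation. This call was lost without DMSO replicate 4 (edgeR adjusted p = 0.0723), without Yoda1 replicate 4 (0.0555) and with upper-quartile scaling (0.0729).

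**Figure D2:**
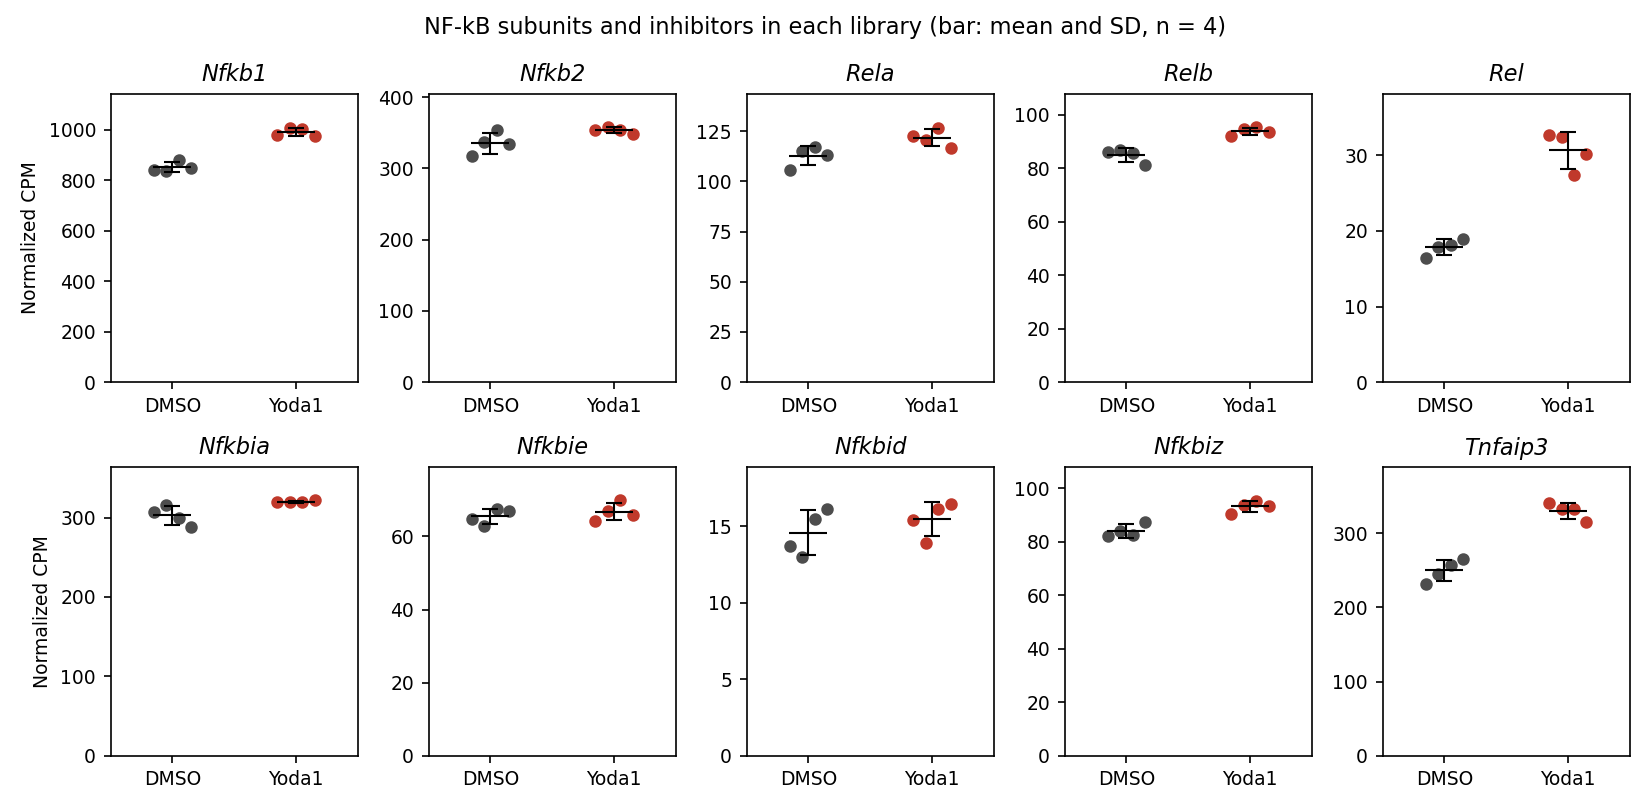
Normalized CPM of each member in the 4 DMSO (grey) and 4 Yoda1 (red) libraries, 1 panel per gene with an axis from 0, with the mean and SD (n = 4) as black bars. The groups stand apart for Rel, Tnfaip3, Nfkb1, Nfkbiz, Relb and, by 3.09 CPM, Nfkbia, and overlap for Rela, Nfkb2, Nfkbid and Nfkbie.

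Tnfaip3 had the next largest difference after Rel. A20 cuts back signalling from TNF and IL-1 family receptors to NF-kB by editing ubiquitin chains on adaptors such as RIPK1 and TRAF6. Tnfaip3 lies on chromosome 10 (19000910 to 19015657, minus strand, 9 exons). It was at 232, 245, 257 and 265 CPM in the DMSO libraries and at 340, 332, 333 and 316 CPM in the Yoda1 libraries. The lowest Yoda1 library was 50.2 CPM above the highest DMSO library. The mean rose from 249.9 ± 14.4 to 330.3 ± 10.4 CPM (SD, n = 4 each). In log2 this is 0.40 ± 0.039 (standard error), with a 95% interval from 0.32 to 0.48, an adjusted p of 1.43e-08 by edgeR and p = 0.0286 by exact permutation. Leaving out each library in turn gave 0.37 to 0.43.

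Of the 4 IkB genes among the members, Nfkbiz was called and Nfkbia, Nfkbie and Nfkbid were not. It encodes IkB-zeta, a nuclear protein that acts with p50 on a subset of NF-kB targets, and lies on chromosome 16 (55811375 to 55838899, minus strand, 14 exons). Nfkbiz was at 82.1, 84.2, 82.5 and 87.4 CPM with DMSO and at 90.5, 93.9, 95.3 and 93.5 CPM with Yoda1. All Yoda1 libraries lay above all DMSO libraries, by 3.06 CPM at the nearest. The mean went from 84.1 ± 2.44 to 93.3 ± 2.02 CPM (SD, n = 4 each), or by 0.15 ± 0.041 (standard error) in log2, with an adjusted p of 0.0138 by edgeR and p = 0.0286 by exact permutation. The call held with each library left out, with edgeR adjusted p-values from 0.0122 to 0.0459.

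Nfkbia encodes IkB-alpha, the inhibitor that is degraded and made again in each round of canonical signalling. It lies on chromosome 12 (55489410 to 55492647, minus strand, 6 exons). Its level was 308, 316, 299 and 289 CPM with DMSO, and all 4 Yoda1 libraries lay between 319 and 322 CPM. The groups did not overlap, but DMSO replicate 2 came within 3.09 CPM of the Yoda1 libraries. The means were 303 ± 11.7 and 320.0 ± 1.12 CPM (SD, n = 4 each). The log2 difference was 0.079 with a 95% interval from 0.0068 to 0.15, and it did not pass the threshold (adjusted p of 0.156 by edgeR, and p = 0.0286 by exact permutation). Nfkbie, which encodes IkB-epsilon (chromosome 17, 45555703 to 45563169, plus strand, 6 exons), ran from 63.0 to 67.4 CPM with DMSO and from 64.3 to 69.9 CPM with Yoda1. The ranges largely coincided, and the log2 difference was 0.026 with a 95% interval from -0.065 to 0.12 (adjusted p of 0.773 by edgeR, and p = 0.543 by exact permutation). Nfkbid, which encodes the nuclear protein IkB-NS (chromosome 7, 30421732 to 30428746, plus strand, 11 exons), had 191 to 320 counts per library. It ran from 13.0 to 16.1 CPM with DMSO and from 13.9 to 16.5 CPM with Yoda1, so the groups overlapped. Its log2 difference was 0.096 with the widest interval of the members, -0.079 to 0.27 (adjusted p of 0.529 by edgeR, and p = 0.286 by exact permutation).

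**Figure D3:**
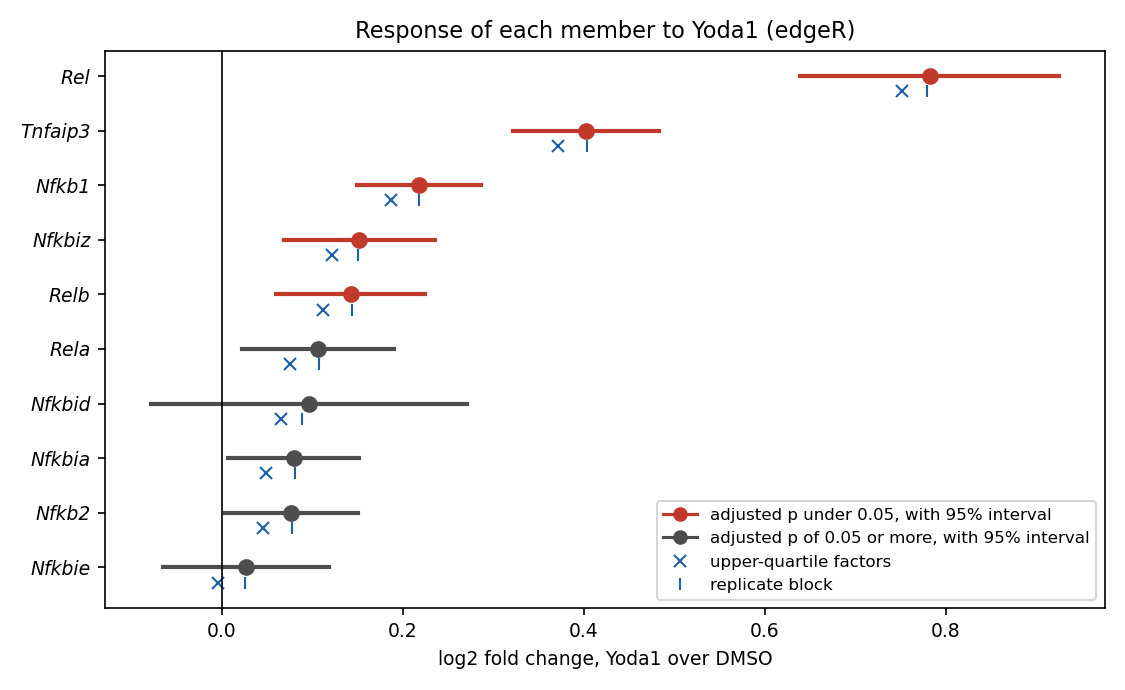
Fitted log2 fold change of each member (Yoda1 over DMSO, edgeR) with its 95% interval, in red where the adjusted p was under 0.05, and with blue crosses and ticks for the fits with upper-quartile scaling and with a block for the replicate number. The interval of Rel (0.64 to 0.93) lies above that of Tnfaip3 (0.32 to 0.48), which lies above the others, and Nfkbie crosses 0 with upper-quartile scaling (-0.0044).

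Because members of one library share its scaling, 8 pairs were also compared as the log2 ratio of their counts within each library, which no scaling can change. Rel/Rela, the balance of the c-Rel and p65 transcripts, was -2.68, -2.67, -2.68 and -2.57 with DMSO and -1.90, -1.89, -2.20 and -1.95 with Yoda1. The groups did not overlap, and the mean difference was 0.67. Tnfaip3/Nfkbia, which sets A20 against IkB-alpha, was -0.41, -0.37, -0.22 and -0.12 with DMSO and 0.089, 0.056, 0.062 and -0.027 with Yoda1. Again the groups stood apart, with a mean difference of 0.32. Nfkb2/Nfkb1, the p52 precursor against the p50 precursor, was -1.41, -1.32, -1.32 and -1.34 with DMSO and -1.47, -1.49, -1.51 and -1.48 with Yoda1. Here the difference was -0.14, without overlap. For each of these 3 ratios the exact permutation test gave p = 0.0286, the smallest that the design allows. After Benjamini-Hochberg adjustment over the 8 pairs it was 0.0762, so none passed. Because p was already at its floor, larger differences in these 3 ratios would have given the same adjusted value. The other 5 ratios overlapped between the groups, with differences of 0.035 for Relb/Rela, -0.028 for Nfkbia/Rela, 0.010 for Nfkbid/Nfkbia, -0.055 for Nfkbie/Nfkbia and 0.070 for Nfkbiz/Nfkbia. Their exact permutation p-values ran from 0.2 to 1.

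**Figure D4:**
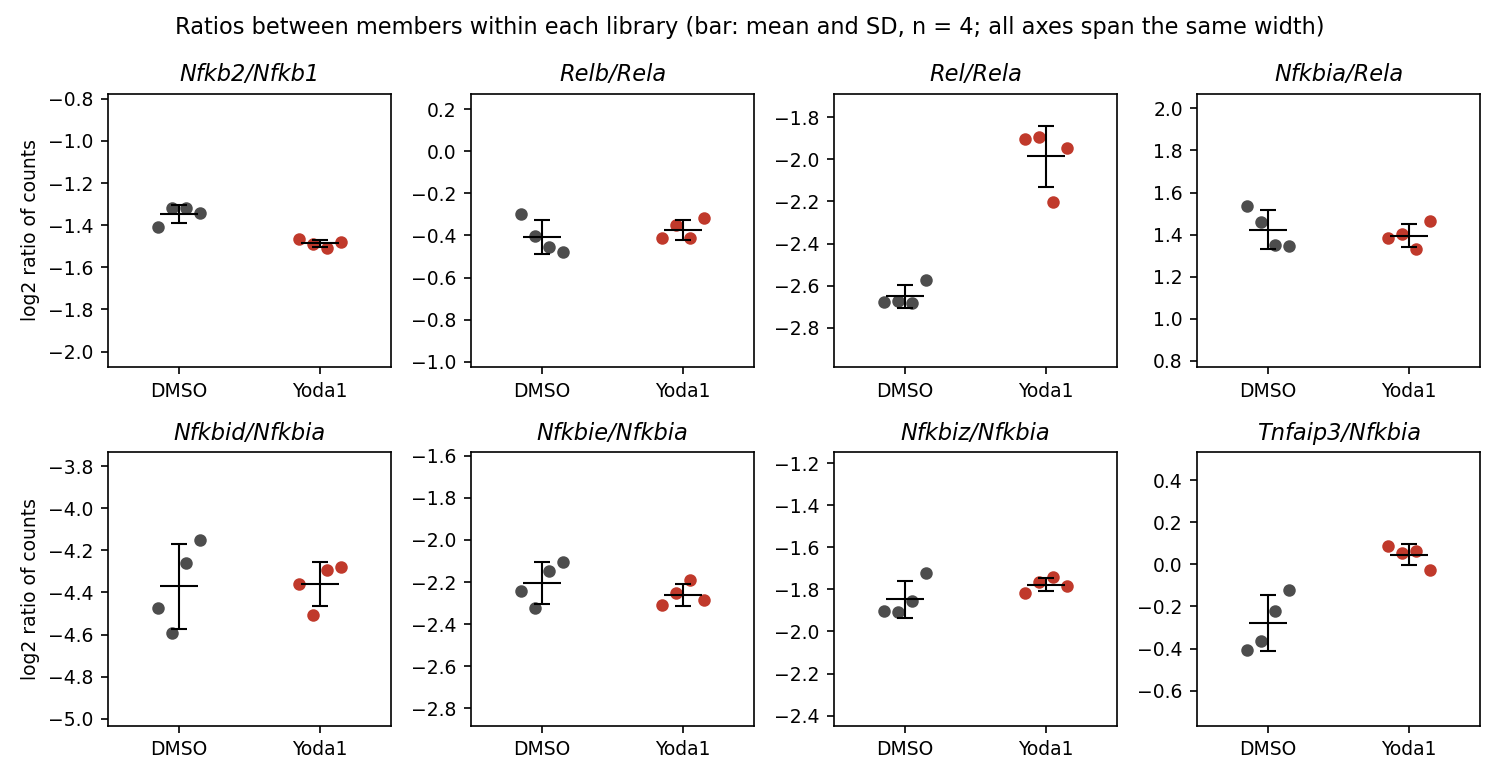
The 8 log2 ratios of counts between members within each library, with DMSO in grey and Yoda1 in red, the mean and SD (n = 4) as black bars, and every axis spanning the same width on the log2 scale. The groups stand apart for Nfkb2/Nfkb1, Rel/Rela and Tnfaip3/Nfkbia and overlap for the other 5 ratios.

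Levels can be compared between genes only per length. Over merged GENCODE M21 exons, Nfkbia had the highest level with DMSO, at 188 CPM per kilobase, followed by Nfkb2 (73.2) and Nfkb1 (70.7), whose libraries overlapped. Rela (36.7) and Tnfaip3 (34.6) also overlapped, as did Relb (21.9) and Nfkbie (21.5). Nfkbiz (16.7), Nfkbid (6.21) and Rel (2.39) closed the order, and each stood apart from its neighbour. With Yoda1, Nfkb1 (82.2 CPM per kilobase) stood above Nfkb2 (77.1) and Tnfaip3 (45.7) above Rela (39.6), while Rel was again lowest at 4.11. The place of Nfkb1 depends on the length used, since its merged exons span 12061 bases and its longest transcript 4149. By the longest transcript Nfkb1 came first with DMSO at 205 CPM per kilobase, ahead of Nfkbia at 192 and Nfkb2 at 87.2. Of the summed per-kilobase level of the 5 subunits, Rel made up 1.17% ± 0.056 in the DMSO libraries and 1.81% ± 0.148 in the Yoda1 libraries (SD, n = 4 each). The share of Nfkb1 was 34.5% and 36.2%, that of Nfkb2 35.7% and 34.0%, that of Rela 17.9% and 17.4%, and that of Relb 10.7% and 10.6%. With the longest transcript the share of Nfkb1 was 56.7% and 58.5%, and that of Rel 0.660% and 1.01%. The gene with the largest fold thus contributed the smallest part of the subunit mRNA in both groups.

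Of 32 kinases and adaptors that act upstream of NF-kB, all tested, edgeR called 6 higher and 1 lower, beside 6.04% and 4.84% of all tested genes. The other 25 were not called, and the median log2 fold change of 0.021 was near that of all genes. It turned to -0.00069 with library size only and -0.0099 with upper-quartile scaling. Prkcq, which encodes protein kinase C theta, fell from 21.4 ± 2.61 to 14.4 ± 1.10 CPM (SD, n = 4 each). In log2 this is -0.57 ± 0.085 (standard error), with an adjusted p of 2.26e-05 by edgeR. Its DMSO libraries (18.1 to 23.7 CPM) lay above all Yoda1 libraries (13.2 to 15.6 CPM). Traf5, an adaptor of TNF receptor family members, had the largest log2 fold change upwards at 0.68 (edgeR adjusted p = 0.00939), on 32 to 69 counts per library, and exons of Gm26879 and Mir3473c overlap it. Malt1 and Bcl10, which link protein kinase C to IKK, differed by 0.19 each (edgeR adjusted p = 0.0123 and 0.0134). Traf1 (0.17), Ripk1 (0.13) and the ubiquitin ligase gene Birc3 (0.13) completed the called genes. Some of these calls lay close to the threshold and were lost in fits with 1 library left out. By edgeR adjusted p, Malt1 was lost without DMSO replicate 2 (0.0641) or Yoda1 replicate 1 (0.0627), Bcl10 without DMSO replicate 3 (0.0521) or Yoda1 replicate 3 (0.0581), and Birc3 without Yoda1 replicate 2 (0.0559). Leaving out each library in turn gave log2 differences of 0.17 to 0.24 for Malt1, 0.16 to 0.21 for Bcl10, 0.11 to 0.15 for Ripk1 and 0.12 to 0.13 for Birc3. Ripk1 missed the threshold in 5 of the 8 fits made with 7 libraries, with edgeR adjusted p-values from 0.0392 to 0.114. Ripk1 and Birc3 were also lost with library size only (edgeR adjusted p = 0.0816 and 0.0502) and with upper-quartile scaling (0.111 and 0.0740), which left 4 upstream genes called higher under either. The IKK subunit genes Chuk, Ikbkb and Ikbkg differed by 0.068, 0.080 and -0.013, and Map3k14, which encodes NIK, by 0.13. None of these 4 was called (edgeR adjusted p from 0.118 to 0.894).

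Among 20 further inhibitors and brakes, all tested, edgeR called 7 higher and 1 lower, beside 6.04% and 4.84% of all tested genes, and the median log2 fold change was 0.018. It turned to -0.0036 with library size only and -0.013 with upper-quartile scaling. Nfkbib, which encodes IkB-beta, rose from 84.4 ± 1.93 to 99.4 ± 1.27 CPM (SD, n = 4 each), or by 0.24 in log2 (adjusted p of 1.21e-04 by edgeR). Its Yoda1 libraries lay 11.4 CPM above all DMSO libraries, and exons of Ccer2 and Sirt2 overlap it on the opposite strand. Tnip3, which encodes an A20-binding protein, had a larger log2 fold change of 0.65 on only 34 to 97 counts per library (edgeR adjusted p = 0.00781). That call was lost without Yoda1 replicate 4 (edgeR adjusted p = 0.0636). Sqstm1, which encodes the autophagy receptor and signalling adaptor p62, rose by 0.22, Rnf11, a component of the A20 complex, by 0.20, and the deubiquitinase gene Otud7b and the zinc finger gene Zfand5 by 0.16 each. Otud7b was lost without Yoda1 replicate 2 (edgeR adjusted p = 0.0532) and Zfand5 without DMSO replicate 3 (0.0510). Pdlim2, which encodes a nuclear ubiquitin ligase for p65, was the 1 gene called lower, at -0.15 (edgeR adjusted p = 0.0371). It missed the threshold in 6 of 8 fits made with 7 libraries, with edgeR adjusted p-values over the 8 from 0.0297 to 0.111. Bcl3, an atypical nuclear IkB protein, was at -0.12 and Cyld, a deubiquitinase, at -0.090, and neither was called (edgeR adjusted p = 0.130 and 0.121).

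Genes widely used as readouts of NF-kB were called in both directions, more of them higher than lower. Of 45 listed, 37 were tested, and edgeR called 16 higher and 3 lower, beside 6.04% and 4.84% of all tested genes. Their median log2 fold change was 0.12, and 27 of the 37 values lay above 0, as did 5925 of all 12239. Of the 16 called higher, 4 (Tnip3, Nfkbib, Traf1 and Birc3) are also counted in the lists above. The largest increases were those of the neutrophil chemokine gene Cxcl2 (log2 fold change 0.77, 66 to 170 counts per library), of Tnip3, of the early response gene Ier3 (0.60), of Ptgs2, which encodes cyclooxygenase-2 (0.56), of Il6 (0.52) and of the kinase gene Plk3 (0.42). Il6 ran from 14.9 to 16.5 CPM with DMSO and from 20.7 to 24.5 CPM with Yoda1. Tnf differed by 0.16, from 107 ± 2.07 to 119 ± 3.20 CPM (SD, n = 4 each; edgeR adjusted p = 0.00691). Lta, which encodes lymphotoxin-alpha, was the most clearly lowered. It was at 243, 223, 221 and 210 CPM with DMSO and at 126, 119, 138 and 131 CPM with Yoda1. The groups lay 72.8 CPM apart, and the log2 difference was -0.81 ± 0.046 (standard error), with an adjusted p of 6.90e-13 by edgeR. Ccnd1, which encodes cyclin D1, had the same log2 fold change of -0.81 on 32 to 94 counts per library (edgeR adjusted p = 3.62e-04). The proteoglycan gene Sdc4 was at -0.18 (edgeR adjusted p = 0.00886), a call lost without DMSO replicate 2 (0.0649). Without DMSO replicate 4 the number called lower was 5. Exons of LTO1 and of Tctex1d4 overlap Ccnd1 and Plk3 on the opposite strand, and of the 30 pathway genes taken by the naming rule 9 have such overlaps on either strand (also Traf5, Ripk1, Ikbkg, Map3k14, Nfkbib, Sqstm1 and Bcl3). No list-level test was made, and these genes also respond to other transcription factors.

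**Figure D5:**
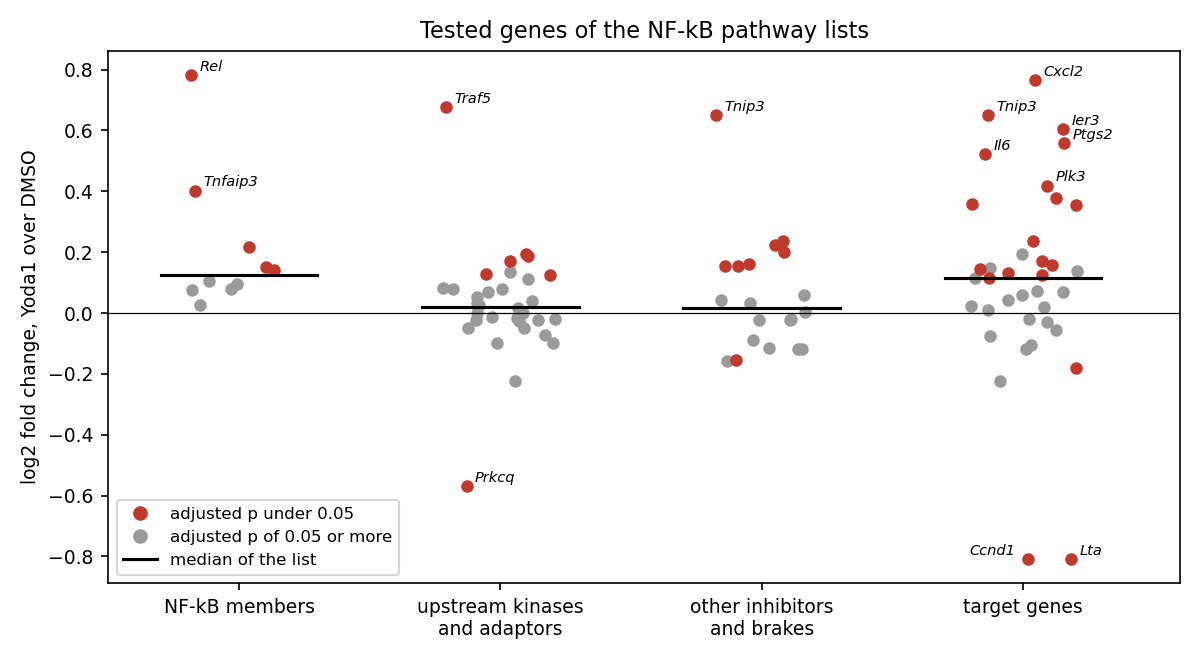
Fitted log2 fold changes (Yoda1 over DMSO, edgeR) of the tested genes in each list, with 1 point per gene, red where the adjusted p was under 0.05 and grey otherwise, and a black line at the median of each list. The medians are 0.12 for the members, 0.021 for upstream genes, 0.018 for other inhibitors and 0.12 for target genes, with Prkcq, Lta and Ccnd1 far below 0. The upstream and other inhibitor medians turn negative with library size only or upper-quartile scaling.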

How the data were processed

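mRNA was measured in 8 libraries of cultured lung ILC2s, 4 with Yoda1 and 4 with DMSO, grouped by the labels' treatment. For each library the authors deposited a table of raw counts, with whole numbers of reads by gene symbol and no normalization. Libraries were made with a directional NEBNext kit after poly(A) selection. Reads were checked with FastQC, cut with FASTX Trimmer and further handled with BBMap and Cufflinks according to the methods, and the submitters' processing notes name TopHat and mm10. The program that counted the reads, its annotation and its strand setting are not given in the sources used here.

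Low genes were removed by filterByExpr of edgeR 4.0.16 in R 4.3.3 (minimum count 10, minimum total 15). Libraries were scaled with TMM, with factors of 1.003 to 1.01 for DMSO and 0.9879 to 0.9965 for Yoda1. With library size only, the median log2 fold change of all tested genes was -0.0268 in place of -0.0053. The groups were compared by robust quasi-likelihood fits of edgeR, with Benjamini-Hochberg adjustment over all 12239 tested genes at 0.05. The study's own Cuffdiff comparison needs reads and was not repeated. CPM are TMM-normalized. Single values were compared by two-sided exact permutation tests in SciPy 1.17.1, and ratios between members used a prior count of 2. Intervals and the floor of 3 counts cover counting error or replicate spread only. The fits were tested on simulated data with known changes. The members, the pathway lists, the motifs and the pairs were chosen with earlier results of these data known.

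Genes named are the 10 members, the called genes of each pathway list (up to the 6 largest in each direction), a fixed set (Ikbkb, Chuk, Ikbkg, Map3k14, Bcl3, Nfkbib, Cyld, Tnf, Malt1, Bcl10, and another that is not reported here) and the 3 genes most like the member with the smallest adjusted p. Gene positions and lengths came from GENCODE M21 (GRCm38), and promoter windows from RefSeq (GRCm38.p6). A comparison of protein sequences was planned, but no protein table was used here. The alternatives were DESeq2 1.42.0, limma-voom (limma 3.58.1), upper-quartile factors, library size only, at least 10 counts in every library, no filter, the replicate number as a block, each library left out in turn, another prior count, another gene length and other motif patterns.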

Additional observations from a re-analysis of the deposited data

Results flagged for a closer look

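Each group of 4 libraries was checked for a highest or lowest library set apart from the other 3 by more than Dixon's limit, for the members, the named pathway genes and the ratios. Of 96 groups examined 4 were flagged, and chance alone flags about 1 in 20, or 4.8 of 96. Both groups of the ratio Rel/Rela were among them. DMSO replicate 4 was high at -2.57 on the log2 scale, where the next library was at -2.67, and Yoda1 replicate 3 was low at -2.20, where the next was at -1.95. Without either, the difference of Rel/Rela stayed within 0.64 to 0.74. Birc3 was high in Yoda1 replicate 2, at 185 CPM against 180 CPM in the next library. Ikbkg was high in the same library, at 65.9 CPM against 64.1 CPM.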

How the results depend on the processing

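Over 15 alternative fits each, the 10 members gave 150 values, of which 146 kept direction and side of the threshold. Relb was the exception in 3 of them, with 0.11 under upper-quartile factors and 0.12 to 0.15 over the fits without 1 library (edgeR adjusted p 0.0189 to 0.0723), and Nfkbie turned to -0.0044 under upper-quartile factors (edgeR adjusted p = 0.968). Of 450 values of the 30 pathway genes taken by the naming rule 418 kept both, 28 lost and 3 gained the call, and Ikbkg turned to 0.00064 without DMSO replicate 4 (-0.041 to 0.00064 without 1 library). Over all genes, those called lower numbered 592, against 958 with upper-quartile factors and 367 to 677 without 1 library (367 without DMSO replicate 2 and 374 without Yoda1 replicate 4). Other inhibitors called lower numbered 1, against 0 with DESeq2, 3 with library size only, 3 with upper-quartile factors and 0 to 2 without 1 library. Target genes called lower numbered 3, against 2 to 5 without 1 library. The cause was not tested. Bcl3 was called without DMSO replicate 4 (edgeR adjusted p = 0.0312), and Cyld with library size only (0.0474) and upper-quartile factors (0.0293). By the longest transcript Nfkb1, Nfkbia and Nfkb2 ranked 1, 2 and 3 per kilobase.

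Nothing in the labels says that a replicate number marks a shared culture, and deviations of same-numbered libraries correlated at 0.0482, 0.0711, -0.0277 and 0.000226, so the numbers were not treated as pairs. With the replicate block the genes called over all numbered 966 in place of 1331, the same 5 members were called, and other inhibitors called lower numbered 0. Pdlim2 (edgeR adjusted p = 0.0732), Ripk1 (0.0708) and Birc3 (0.0502) were lost. The paired sign-flip test of a ratio cannot go below 0.125 with 4 pairs.

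Among the pathway genes named, Traf5, Tnip3, Cxcl2 and Ccnd1 had under 200 counts in every library, which limits their precision. The same holds for the NK cell markers Ncr1 (39 to 93 counts), Klrb1c (69 to 104) and Klre1 (56 to 100), and for other cell type markers with low counts.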
